A study of Mus musculus with 28 samples.

Results

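L-GMP are leukaemic mouse bone marrow cells sorted by the surface phenotype of GMP (granulocyte-macrophage progenitors), the committed marrow progenitors that normally give rise to neutrophils and monocytes. The comparison set 6 arrays of L-GMP against 4 arrays of normal GMP, which are 10 of the 28 arrays of the study, and covered the 8422 genes with a usable signal. Arrays were assigned to their group by title. The L-GMP titles describe cells negative for mature lineage markers and Sca and positive for Kit, Fc receptor and CD34, and the source label calls them leukaemic. The normal GMP came from bone marrow through the same gate with high CD34. The remaining sorted arrays were 5 of a lineage-negative, Sca-positive, Kit-positive fraction rich in haematopoietic stem cells (HSC), 4 of CMP (common myeloid progenitors), labelled Fc receptor-positive and CD34 low, and 3 of megakaryocyte-erythroid progenitors (MEP), negative for both. A separate experiment, amplified on other days, held GMP expressing the fusion MLL-AF9 (3 arrays) or green fluorescent protein (GFP, 3 arrays). Strain, age, sex, vector and the number of leukaemic animals are not given in the sources used here, and the labels leave unsaid whether each replicate was its own animal. A p-value here therefore covers only spread between these samples, which may be technical.

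MLL-AF9 joins the amino-terminal part of KMT2A (MLL), a histone methyltransferase that keeps HOX genes active, to MLLT3 (AF9), which works in transcription elongation. Acute myeloid leukaemias with such fusions usually express late HOXA genes together with MEIS1, a homeobox cofactor, and these genes are normally shut down as stem cells commit to the granulocyte and monocyte lineages. GMP themselves are rapidly dividing cells that fill with primary granule proteins before they leave the cell cycle. The comparison asks how leukaemic cells that share the surface of GMP differ from the normal cells.

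Each value is a scaled probe set intensity, set to a floor of 38.7 where it was lower, and the median of the sorted experiment was 107.6. Arrays correlated across genes with r from 0.939 to 0.984 within L-GMP, from 0.947 to 0.983 within GMP, and from 0.878 to 0.921 between L-GMP and GMP. Between L-GMP and the other sorts r was 0.830 to 0.864 for CMP, 0.759 to 0.824 for HSC and 0.749 to 0.810 for MEP, as a description, since genes are not independent. The log2 ratio of 3' to 5' control signal, a measure of RNA length after amplification, was 2.85 ± 0.08 in L-GMP and 2.92 ± 0.31 in GMP (SD). Replicate 1 of GMP stood apart from the other GMP arrays, with r of at most 0.959 against at least 0.971 among the other 3. The mean log2 level of the immediate early genes, which respond within minutes to cell handling and growth signals, was 6.92 to 7.69 on the L-GMP arrays, 6.79 on replicate 1 of GMP and 8.24 to 8.61 on the other GMP arrays. In CMP and HSC replicate 1 was also the lowest array. It had 7.03 in CMP (the others 9.24 to 9.32) and 8.07 in HSC (the others 9.40 to 10.46). In L-GMP and MEP replicate 1 was not the lowest. For some lists the counts without replicate 1 of GMP are given too, and the other counts may also change without it. Since each array was scaled to the same level, fewer cells of a type and less RNA per cell cannot be told apart.

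Genes were counted as called where the adjusted p fell under 0.05 (limma, Benjamini-Hochberg over all genes tested). Of 8422 genes, 2825 were called (33.5%). L-GMP were higher in 1282 (15.2%) and lower in 1543 (18.3%), and 505 of the 2825 differed at least 2-fold (6.0%), a count that was 319 with a floor at the 50th percentile. Values written with ± are log2 changes, L-GMP minus GMP, with their standard errors (SE), and medians of a list are log2 changes too. The median log2 change over all genes was 0.01. The shares of 33.5% called, 15.2% higher and 18.3% lower are the background for the counts of list members below. Without replicate 1 of GMP 2655 genes were called. On 958 genes (11.4%) all 6 L-GMP arrays lay above all 4 GMP arrays, and on 1191 (14.1%) all lay below. Most of the larger differences set L-GMP apart from the whole of the normal sorts. For 169 of the 254 genes called at least 2-fold higher (66.5%, against 5.69% of all genes) every L-GMP array lay above all 16 normal arrays, and for 154 of the 251 called at least 2-fold lower (61.4%, against 4.94% of all genes) every one lay below. These shares are descriptions, since GMP are among the 16 arrays. Fold changes against a group with any array at the floor are lower bounds and are written "at least", and the SE of a group all at the floor rests on the absence of spread there.

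Each gene is represented by 1 probe set. Of the 76 called genes named here that had several, 23 had another that was not called, 2 had another called the other way and a further 14 had one with a log2 change under 0.5 times as large. For the 25 genes of the first 2 kinds the other value is given beside the result.

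**Figure D1:**
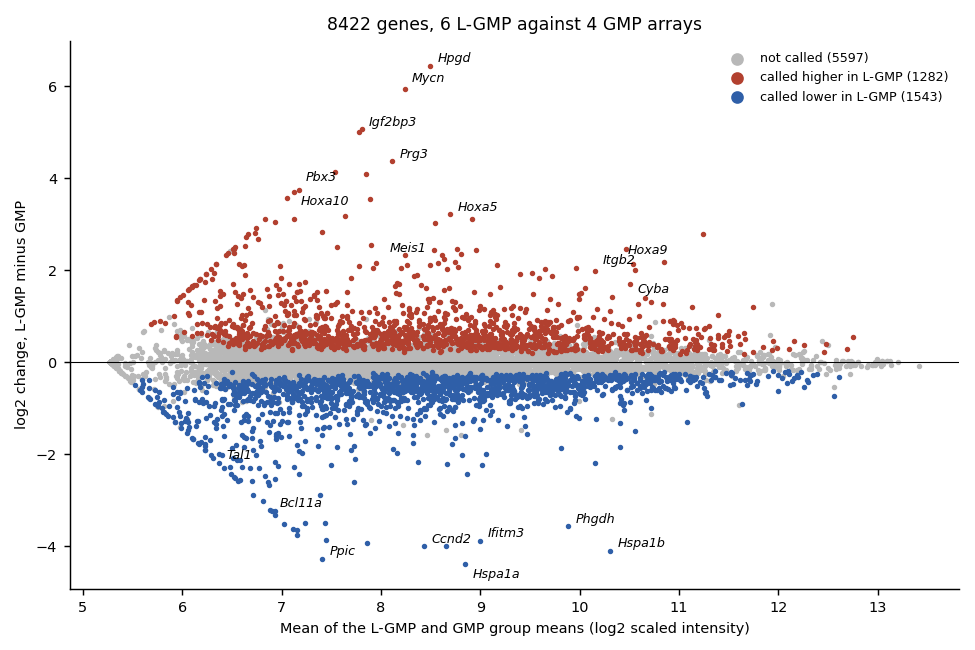
The log2 change of 8422 genes in L-GMP against GMP (vertical axis) is plotted against the mean log2 level of both groups (horizontal axis), with called genes in red (1282 higher in L-GMP) and blue (1543 lower) and 5597 not called in grey. The straight edges at low levels are genes at the floor in one group, where the change is a lower bound.

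The L-GMP arrays expressed genes that mark GMP, several of them at lower levels than the GMP arrays. Among these markers Cebpa, Kit and Cd34 were called lower and Fcgr3 was not called, as given further on. Granule protease genes that define GMP were well above the floor in both groups. Elane (neutrophil elastase) had 3295, 5488 and 7330.0 (lowest, median and highest array) in L-GMP, against 5243, 5615, 6640.2 and 7597 on the 4 GMP arrays in replicate order. Prtn3 (proteinase 3) had 5955, 6139 and 6492 in L-GMP, against 6998, 7149, 7421 and 8176 in GMP. In the same order of values, Csf1r, the receptor of macrophage colony-stimulating factor, had 1855, 2259 and 2454 in L-GMP, against 3034, 2914, 2847 and 2883 in GMP. In Prtn3 and Csf1r all L-GMP arrays lay below all GMP arrays, while Elane overlapped. None of these genes was called, nor were Ctsg (-0.53 ± 0.33, adjusted p = 0.237) and Ms4a3 (-0.92 ± 0.44, adjusted p = 0.119). Ctsg, Prtn3, Ms4a3 and Csf1r were called lower when the 10 arrays were fitted alone. Mpo (myeloperoxidase) had 2988, 5062 and 5596 in L-GMP, against 7711, 7677, 7790.5 and 7902 in GMP, a log2 change of -0.73 ± 0.28 that passed narrowly (adjusted p = 0.0487) and lost its call in 16 of 24 alternatives, including each of the 4 settings that leave out 1 GMP array. Procr, a stem cell marker, stayed at the floor throughout L-GMP and GMP. Of the markers of mature cells that the lineage gate should remove, Cd79a, Ms4a1, C1qa, C1qc, Cd163, Epx, Cma1, Cd3d and Cd3g were too dim to be tested. Camp, Ngp, Ltf, Prg2 and Pf4, also such markers, were tested and are given further on. Of these Camp and Prg2 were called higher in L-GMP, neither in all alternatives. The members of their lists that were tested are counted further on.

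Genes of the sort markers and Fc receptors changed in both directions. Of 12 listed sort markers and Fc receptors 9 were tested, 4 were called higher and 3 lower. Kit, the stem cell factor receptor, had 271, 284 and 389 in L-GMP, against 402, 372, 438 and 489 in GMP (log2 change -0.49 ± 0.13 SE, adjusted p = 0.00489). Cd34, whose protein divides GMP from other progenitors, had 188, 278 and 413 in L-GMP, against 512, 447, 554 and 464 in GMP (-0.87 ± 0.24, adjusted p = 0.00756), and all L-GMP arrays lay below all GMP arrays. The labels ask for CD34 in L-GMP and for high CD34 in GMP, so the 2 gates themselves differ in this marker. Fcgr3 did not pass the test (0.14 ± 0.15, adjusted p = 0.513), and neither did Slamf1 (-0.01 ± 0.15, adjusted p = 0.974). Fcer1g, the signalling chain shared by Fc receptors, rose 2.67-fold and Fcgr4, an IgG receptor of monocytes and neutrophils, 2.99-fold. Smaller shifts were those of Fcgr2b (0.62 ± 0.18), the inhibitory IgG receptor, Ptprc (0.49 ± 0.10), which encodes CD45, and Cd48 (-0.35 ± 0.12). Another probe set of Fcgr2b was not called (0.59). The Cd48 call was lost in 6 of 24 alternatives and the Fcgr2b call without replicate 1 of GMP, CMP and HSC (adjusted p = 0.0521).

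HoxA genes and 2 of their cofactors rose in L-GMP. Of 11 HoxA genes 6 were tested, 5 rose and none fell, with a median log2 change of 1.97. Hoxa10 had 348, 481 and 694 in L-GMP and was at the floor on every GMP array, at least 12.9-fold higher (3.69 ± 0.14, adjusted p = 1.78e-14). Hoxa9, the HOX gene most closely tied to MLL leukaemia, had 1964, 3095 and 4095 in L-GMP, against 662, 901, 852 and 621 in GMP, a 4.03-fold rise (adjusted p = 9.46e-08). Hoxa5 had 865, 1226 and 1816 in L-GMP, against 127, 192, 190.3 and 73.4 in GMP, 9.30-fold higher (adjusted p = 3.13e-08). For all 3 genes the groups did not overlap. Hoxa3 rose at least 3.80-fold from a floor level on every GMP array, and Hoxa7 1.82-fold. Hoxa11 did not pass (0.48 ± 0.22, adjusted p = 0.0979), although it was called without replicate 1 of L-GMP and without replicate 4 of GMP. In the HSC fraction the medians were 2913 for Hoxa9, 925 for Hoxa5 and 201 for Hoxa10. L-GMP thus stood near the HSC median in Hoxa9 and above all HSC arrays in Hoxa10.

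HOX proteins bind DNA together with PBX and MEIS proteins. Of 9 such cofactors 4 were tested and 2 rose. Meis1 had 757, 847 and 1014 in L-GMP, against 179.9, 209, 196 and 151 in GMP, 4.74-fold higher (adjusted p = 7.64e-09), and lay below the HSC median of 1588. Pbx3 had 382, 560.4 and 596 in L-GMP, against 38.7, 38.7, 38.7 and 42.0 in GMP, at least 13.4-fold higher (adjusted p = 2.28e-14). Unlike Meis1, Pbx3 was near the floor in every normal sort, with medians of 52.96 in HSC, 53.04 in CMP and 44.2 in MEP. Meis3 (0.33 ± 0.17, adjusted p = 0.159) and Pbx2 (0.05 ± 0.14, adjusted p = 0.831) did not pass, and Pbx2 was called higher (0.50) when the mean of its probe sets was used.

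Of 22 tested members of a list of other MLL fusion targets, which shares Meis1 with the cofactors, 10 rose and 3 fell, with a median of 0.36. The lists can share genes. Igf2bp3, a fetal RNA-binding protein, had 1085, 1251 and 1636 in L-GMP and was at the floor on all 16 normal arrays. Mef2c, a transcription factor of myeloid and lymphoid progenitors, had 1349, 1755 and 2277 in L-GMP, against 711, 745, 598 and 437 in GMP (2.86-fold, adjusted p = 3.21e-05). Jmjd1c, a histone demethylase homologue, rose 2.58-fold and Lmo2, an adaptor of haematopoietic transcription complexes, 1.70-fold. Mylk, the kinase of the myosin light chain, had 789, 1004 and 1048 in L-GMP, against 41.8, 84.8, 55.1 and 48.7 in GMP, 17.1-fold higher. The 3 that fell were Nrip1 (-2.11 ± 0.19), a nuclear receptor corepressor, Hmga2 (-1.43 ± 0.31), a chromatin protein of fetal stem cells, and Sox4 (-0.96 ± 0.23), a transcription factor of progenitors. Of the 6 kept probe sets of Sox4 3 were not called (-0.27, -0.31 and -0.27), nor was another of Hmga2 (-0.48). Jmjd1c was named after its value was seen. Hmga2 stayed at the floor throughout L-GMP and lost its call with a floor at the 50th percentile.

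In a list of MLL, its fusion partners and elongation factors 3 of 18 tested rose and 3 fell (33.3%), a share near that of all genes. Psip1, the chromatin reader that tethers MLL, had 140.1, 164 and 208 in L-GMP, against 322, 365, 339.8 and 313 in GMP (-0.99 ± 0.14, adjusted p = 1.69e-05). Kmt2a had 211, 312 and 394 in L-GMP, against 445, 577, 453 and 373 in GMP (-0.60 ± 0.19, adjusted p = 0.0156), and its call was lost without replicate 2 of GMP (adjusted p = 0.0721). Mllt3 was at the floor on 5 of the 6 L-GMP arrays and did not pass (0.07 ± 0.12, adjusted p = 0.714). Those values count whatever the probe sets bind, and where they lie relative to the fusion point is not known here. Aff1 (0.40 ± 0.11), Mllt10 (0.42 ± 0.11) and Ell (0.60 ± 0.16), whose products belong to elongation and chromatin complexes and are themselves MLL fusion partners, rose, Ell not with a floor at the 50th percentile.

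**Figure D2:**
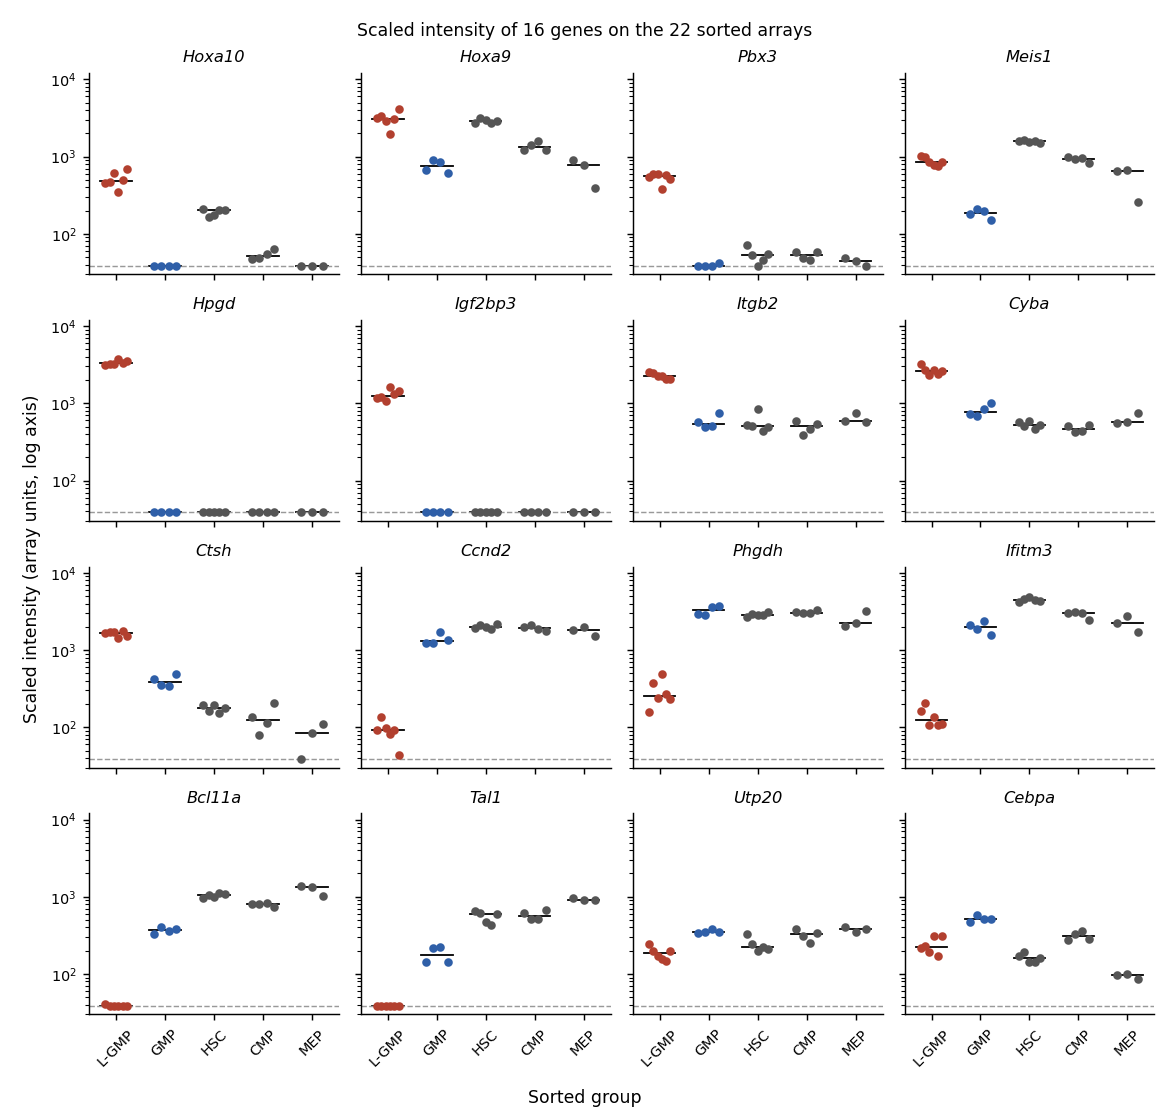
Scaled intensity (log axis) of 16 genes on each of the 22 sorted arrays, with L-GMP in red, GMP in blue and the other normal sorts in grey, a black line at each group's median and a dashed line at the floor of 38.7. Hoxa10, Pbx3, Hpgd and Igf2bp3 were at or near the floor in GMP and high on every L-GMP array, and Ccnd2, Phgdh, Ifitm3, Bcl11a and Tal1 were lower on every L-GMP array than on any normal array.

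Some genes were switched on in L-GMP from a level at the floor in all normal cells. In all, 14 genes lay at the floor on the 16 normal arrays and above it on every L-GMP array. Hpgd, the dehydrogenase that inactivates prostaglandins, had 3162, 3293 and 3758 in L-GMP and nothing above the floor elsewhere, at least 87.3-fold higher (6.45 ± 0.06, adjusted p = 1.51e-25). A second probe set of Hpgd was called in the same direction. Penk, the precursor of enkephalin peptides, had 651, 1254 and 2309.8 in L-GMP, and Apoc2, the cofactor of lipoprotein lipase, 295, 442 and 632, both from the floor in GMP. Mycn, a MYC family transcription factor, had 1206, 2589.5 and 4367 in L-GMP by the probe set that represents it, at least 61.1-fold higher. Its probe sets disagreed, since another kept one lay at the floor throughout both groups, and with a floor at the 10th percentile, which makes that one represent the gene, the change was 0.00.

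Of 18 tested prostaglandin and leukotriene genes 3 rose, Hpgd among them, and 4 fell (38.9%), a share near that of all genes. Those that fell included 3 receptors of prostaglandin E2. By the probe set that represents it, Ptger3 was at the floor on every L-GMP array, against 132, 208, 180.3 and 125 in GMP (at least 4.07-fold lower, adjusted p = 6.72e-10). Its other probe set averaged 87.6 in L-GMP and 102 in GMP and was not called (-0.22, adjusted p = 0.662). Ptger4 had 50.1, 58.9 and 69.9 in L-GMP, against 195, 179, 242 and 221 in GMP (3.54-fold lower, adjusted p = 3.05e-08). Ptger2 had 47.6, 70.8 and 119 in L-GMP, against 167, 156, 169.9 and 173 in GMP (2.34-fold lower, adjusted p = 8.67e-05). For each receptor, by these probe sets, all L-GMP arrays lay below all GMP arrays. Ptges2, a prostaglandin E synthase, fell by 0.87. On the leukotriene side Ltb4r1, the leukotriene B4 receptor of phagocytes, rose 2.60-fold, with 1408, 1560.0 and 2311 in L-GMP, against 498, 569.9, 617 and 900.1 in GMP, and Alox5ap, which presents arachidonic acid to 5-lipoxygenase, rose 1.41-fold.

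Other genes with large increases came from unrelated groups. Sgip1, an endocytic adaptor, rose at least 17.6-fold, Tctex1d1 11.7-fold, Aldh3b1, an aldehyde dehydrogenase, at least 8.69-fold, Baz2b, a bromodomain protein, 8.19-fold and Olfm1, a secreted olfactomedin, 7.12-fold. Aspa, the enzyme that cleaves N-acetylaspartate, rose at least 8.70-fold. Baz2b had 880.1, 1065 and 1331 in L-GMP, against 101, 149.6, 151 and 126 in GMP, and its medians of 244 in HSC, 203 in CMP and 169 in MEP were also below every L-GMP array.

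Several surface receptors of mature myeloid cells rose in L-GMP. Of 25 tested C-type lectins and immunoglobulin-like receptors 10 rose and 3 fell, with a median of 0.41. Pilra, Cd300lf and Cd33, inhibitory receptors of phagocytes, rose at least 5.75-fold, at least 5.17-fold and 4.44-fold. Cd33 had 662, 808 and 971 in L-GMP, against 206, 202, 164 and 156 in GMP (adjusted p = 1.6e-10), with no overlap. Siglecf, a sialic acid receptor known from eosinophils, rose 3.12-fold, and Pilrb1, an activating receptor, 5.44-fold. The adaptors that carry the signals of activating receptors rose as well, Tyrobp (DAP12) 2.31-fold and Hcst (DAP10) 2.84-fold, both named after their values were seen. Tyrobp had 4787, 5097 and 6467 in L-GMP, against 2392, 2115, 2128 and 2433 in GMP. The 3 that fell were Clec4e (-1.67 ± 0.33), Clec5a (-1.39 ± 0.21) and Clec4d (-1.03 ± 0.23), lectins that sense microbes and cell damage.

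Adhesion molecules of circulating leukocytes were called in both directions. Of 24 tested integrins and adhesion molecules 10 rose and 4 fell (58.3%, against 33.5% of all genes called), with a median of 0.37. Itgb2, the beta chain common to the leukocyte integrins, had 2053, 2279 and 2513 in L-GMP, against 573, 499.6, 504 and 743 in GMP, 3.97-fold higher (adjusted p = 3.72e-09). Itgam, its partner in Mac-1, had 89.6, 137 and 248 in L-GMP, against 48.6, 38.7, 38.7 and 38.7 in GMP, at least 3.36-fold higher. Itgb5 rose 2.99-fold and Itgb7 2.11-fold. Itgb2 and Itgb5 were higher on every L-GMP array than on any GMP array. Icam4, an erythroid adhesion molecule, stayed at the floor throughout L-GMP, against 91.1, 119, 154 and 132 in GMP, and Selp, P-selectin, fell at least 2.89-fold, neither called with a floor at the 50th percentile. In the adhesion G protein-coupled receptors 4 of 7 tested rose and 2 fell (85.7%). Adgre1 (F4/80) had 1072, 1456 and 1750.0 in L-GMP, against 149, 189, 164 and 158 in GMP (8.69-fold, adjusted p = 2.06e-11), and Adgre5 (CD97) rose 5.01-fold. Adgrg1 (GPR56), a receptor of stem cells, fell by 1.25 on the log2 scale.

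Chemokine and pattern receptors showed single large changes. Ccr1, a receptor of inflammatory chemokines, had 289, 342 and 482 in L-GMP, against 45.3, 46.9, 38.7 and 38.7 in GMP, at least 8.33-fold higher (adjusted p = 9.39e-15). Cxcr4, which holds progenitors in the marrow, rose 1.70-fold. Of 15 tested Toll-like receptor and endotoxin sensing genes 4 rose and 1 fell (33.3%), a share near that of all genes. Tlr1 had 309, 460.1 and 688 in L-GMP, against 102, 108, 107 and 106 in GMP, 4.29-fold higher (adjusted p = 3.47e-10), and was at the floor on all HSC, CMP and MEP arrays. Nlrp3, an inflammasome sensor, fell by 0.99.

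The phagocyte oxidase, which makes superoxide, was higher in its common subunits. Of 8 tested genes 4 rose and 1 fell. Cyba, the membrane subunit p22phox, had 2319.7, 2635 and 3203 in L-GMP, against 724, 687, 834 and 1018 in GMP, 3.27-fold higher (adjusted p = 7.11e-10). Ncf4, a cytosolic subunit, rose 2.01-fold and the GTPase Rac2 2.16-fold. The groups did not overlap in any of the 3.

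Lysosome genes formed a broad higher group. Of 53 listed 42 were tested, 22 rose and 3 fell (59.5%, against 33.5% of all genes called), with a median of 0.38. In 19 of the 42 every L-GMP array lay above every GMP array, which held for 11.4% of all genes. Ctsh, a cysteine protease, had 1411, 1684 and 1745 in L-GMP, against 419.8, 349, 345 and 486 in GMP, 4.10-fold higher (adjusted p = 9.72e-07). Neu1, a sialidase, rose 2.72-fold, Cd68, a lysosomal membrane protein of macrophages, 2.63-fold, and Man2b1, an alpha-mannosidase, 2.48-fold. Lamp1, the main glycoprotein of the lysosome membrane, had 3211, 3287 and 3484 in L-GMP, against 1749, 1883, 1913 and 2157 in GMP (1.72-fold, adjusted p = 5.7e-07), and Ctsd, an aspartic protease, rose 1.47-fold with overlap of the groups. Ctsc, which activates granule proteases, fell by 0.52, and Gla (-0.44 ± 0.14) and Psap (-0.38 ± 0.11) also fell. The Gla call was lost without replicate 3 or 4 of GMP (adjusted p up to 0.0752) and the Psap call without replicate 4 (adjusted p = 0.0501).

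Many lysosome and growth genes carry the letters CACGTG near their start, the E-box bound by MYC and TFEB family factors. In RefSeq promoters of mouse assembly GRCm38.p6, taken from 250 bases before to 50 bases after the start, CACGTG (its own reverse complement) stood in 10 of the 33 tested lysosome genes with a promoter in the table (30.3%) and in 5 of the 16 called higher (31.2%), against 705 of the 6851 tested genes with a promoter (10.3%) and 7.24% of all 27025 promoters. The promoters of Ctsd and Lamp1 are shown because both genes rose and hold more than 1 copy; capitals mark CACGTG. Lamp1 was named after its value was seen. The Ctsd window is chr7:142387778-142388077, minus strand, and the Lamp1 window chr8:13158911-13159210, plus strand.
Ctsd: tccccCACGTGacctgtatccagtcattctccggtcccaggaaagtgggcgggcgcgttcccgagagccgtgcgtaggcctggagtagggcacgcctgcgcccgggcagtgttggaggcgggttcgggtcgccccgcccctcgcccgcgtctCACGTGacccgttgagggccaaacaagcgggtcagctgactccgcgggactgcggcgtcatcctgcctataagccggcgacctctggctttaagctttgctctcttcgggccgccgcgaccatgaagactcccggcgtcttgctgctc
Lamp1: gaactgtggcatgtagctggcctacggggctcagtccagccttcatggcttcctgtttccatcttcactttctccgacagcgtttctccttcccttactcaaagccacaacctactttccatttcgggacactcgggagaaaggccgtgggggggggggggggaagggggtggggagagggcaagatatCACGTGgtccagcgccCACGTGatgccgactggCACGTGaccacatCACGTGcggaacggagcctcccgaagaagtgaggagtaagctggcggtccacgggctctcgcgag
Ctsd holds 2 copies, which begin 245 and 98 bases before the start, and Lamp1 holds 4, which begin 61, 45, 28 and 15 bases before it. A match is a description of the letters and shows no binding.

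Actin and myosin genes, which drive shape change and migration, also rose in large part. Of 35 tested 20 rose and 4 fell, with a median of 0.37. Gsn (gelsolin), which severs actin filaments, had 453, 651 and 936 in L-GMP, against 127, 99.9, 115 and 222 in GMP, 5.05-fold higher (adjusted p = 4.52e-08). Flna, the crosslinker filamin A, rose 1.94-fold and Tpm4, a tropomyosin, 1.94-fold. Marcks, a membrane-actin linker, fell and was at the floor on every L-GMP array, against 274, 377, 311 and 206 in GMP (at least 7.38-fold lower, adjusted p = 6.97e-11). Of 21 tested ephrin, semaphorin and other guidance genes 8 rose and 1 fell, with a median of 0.40. Epha7, an ephrin receptor, had 150.0, 854 and 1158 in L-GMP, against 52.5, 77.9, 81.1 and 57.2 in GMP (9.04-fold), and Plxnd1, a semaphorin receptor, 531, 617 and 671, against 152, 222, 192 and 194 in GMP (3.21-fold, adjusted p = 5.04e-07). Nrp1, a coreceptor of semaphorins, fell by 0.92.

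**Figure D3:**
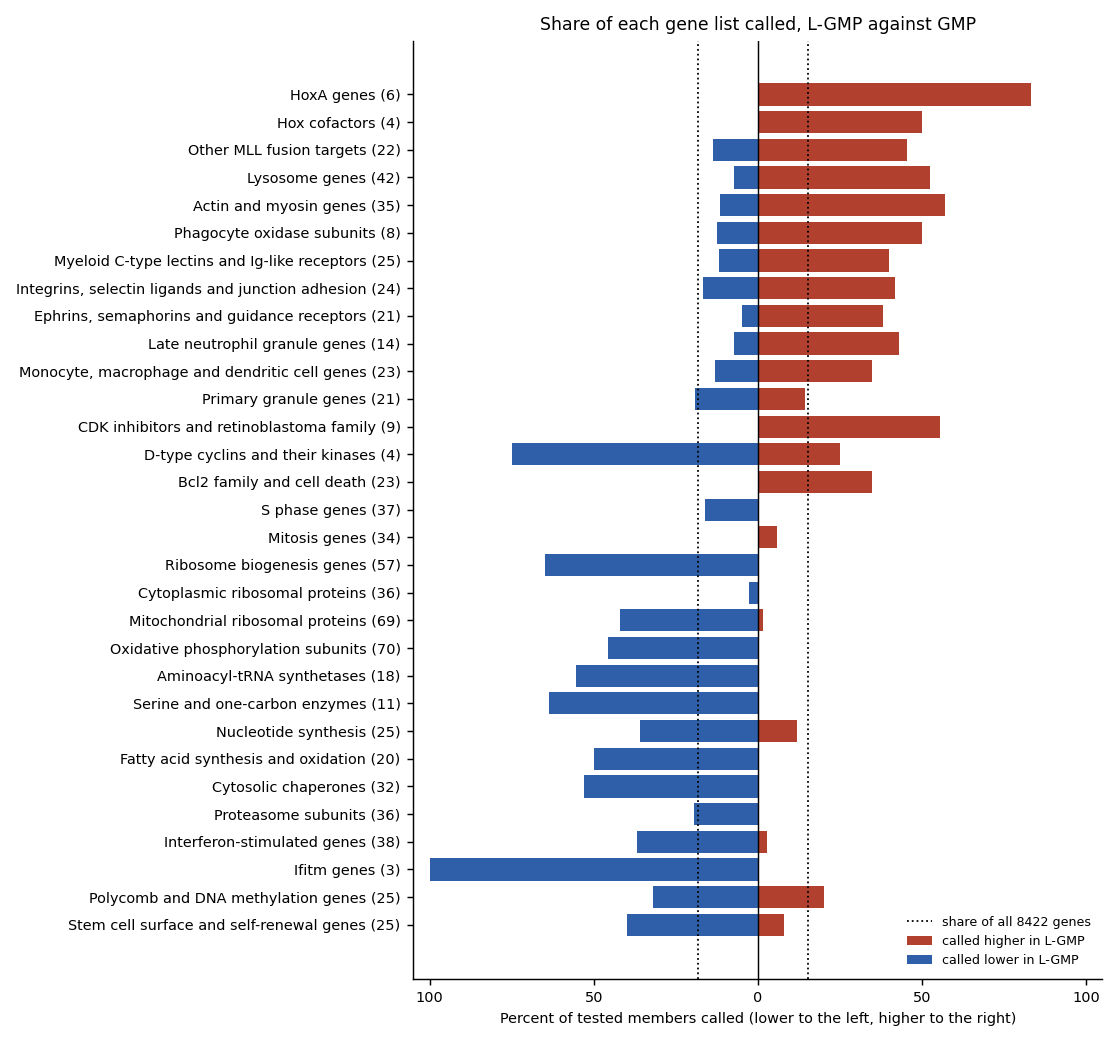
Bars give the percent of tested members of 31 gene lists called higher (red, to the right) and called lower (blue, to the left) in L-GMP against GMP, with the number tested in brackets. Dotted lines mark the shares over all 8422 genes, 15.2% higher and 18.3% lower.

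Granule genes moved in both directions. Of 21 tested primary granule genes, made at the promyelocyte stage, 3 rose and 4 fell, a share close to that of all genes, with a median of -0.26. Cst7 (cystatin F), an inhibitor of granule proteases, had 329, 474 and 702 in L-GMP, against 1473, 1446, 1855 and 2215 in GMP, 3.66-fold lower (adjusted p = 4.43e-08). Of 14 tested late neutrophil genes 6 rose and 1 fell, with a median of 1.12. Stfa3, a stefin of granulocytes, rose at least 7.54-fold, and Padi4, a histone deiminase named after its value was seen, 3.31-fold. Chil3, a chitinase-like granule protein, had 1845, 4274 and 6038 in L-GMP, against 1594, 289.8, 578 and 2131 in GMP, and Camp, the cathelicidin, 1259.6, 3192 and 5959, against 1389, 256, 460.3 and 1526 in GMP. Both varied widely within each group and the groups overlapped, although both were called (2.17 ± 0.58 and 2.14 ± 0.62), Camp not without replicate 2 of GMP (adjusted p = 0.0611). The summed level of the late neutrophil list was 21141 to 47450 on the L-GMP arrays and 7906 to 26158 on the GMP arrays, with no member at the floor throughout either group. Whether mature neutrophils or their RNA took part in these values was not tested. Ngp did not pass (0.87 ± 0.49, adjusted p = 0.19), and Ltf, lactoferrin, was lower (-1.84 ± 0.65), a call lost in 10 of 23 alternatives.

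Eosinophil and basophil genes went both ways. Of 11 tested 4 rose and 4 fell. Prg3, an eosinophil granule protein, had 968, 1317 and 1431 in L-GMP, against 38.7, 38.7, 50.8 and 179 in GMP, at least 20.7-fold higher (adjusted p = 1.05e-10), and it was at the floor on all HSC, CMP and MEP arrays. Prg2, the major basic protein, had 902, 2235 and 3233 in L-GMP, against 489.9, 279.6, 173 and 2447 in GMP, of which replicate 4 overlapped the L-GMP arrays, and its call was lost in 7 of 24 alternatives. Without that GMP array its log2 change was 2.81, against 2.04 with it. Mcpt8, a basophil protease, had 38.7, 73.8 and 157 in L-GMP, against 277, 291, 325 and 241 in GMP, at least 3.82-fold lower (adjusted p = 9.9e-06), and Gzmb, granzyme B, fell at least 3.34-fold. Hdc, the enzyme of histamine synthesis, fell by 0.69, and its other probe set was not called (-0.54). The summed level of the list was 6891 to 9334 on the L-GMP arrays and 4192 to 6535 on the GMP arrays, with no member at the floor throughout either group, and the part of other cells in it was not tested.

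Of 23 tested monocyte, macrophage and dendritic cell genes 8 rose and 3 fell (47.8%, against 33.5% of all genes called), with a median of 0.30. Lgals3 (galectin-3) had 563, 835 and 1175 in L-GMP, against 365, 134, 153 and 217 in GMP, 4.09-fold higher (adjusted p = 0.000223), and Id2, which blocks helix-loop-helix proteins, rose at least 2.98-fold. Apoe, a lipid carrier of macrophages that is also high in erythroid progenitors (MEP median 3367), was at the floor on every L-GMP array, against 251, 229, 277 and 176 in GMP (at least 5.95-fold lower, adjusted p = 6.14e-11). F13a1, a coagulation subunit of monocyte progenitors, had 551, 855 and 1444 in L-GMP, against 2708, 2257, 2379 and 2781 in GMP, 2.80-fold lower (adjusted p = 0.0124). The summed level of the list was 14049.6 to 16522 on the L-GMP arrays and 12940.2 to 14076 on the GMP arrays, with Zbtb46, a dendritic cell factor, at the floor throughout both groups.

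Among transcription factors of the myeloid lineages 2 of 16 tested rose and 3 fell (31.2%), a share near that of all genes. Cebpa, which is needed for GMP to form, had 173, 221 and 315 in L-GMP, against 469.6, 583, 519 and 520.5 in GMP, 2.24-fold lower (adjusted p = 2.67e-06). Spi1 (PU.1), the other main factor of these cells, had 737, 932 and 1095 in L-GMP, against 416, 630.0, 579 and 645 in GMP, 1.65-fold higher (adjusted p = 0.00097). Mitf, a factor of mast cells and basophils, fell by 1.58. All L-GMP arrays lay below all GMP arrays in Cebpa and Mitf and above them in Spi1.

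Factors that mark stem and erythroid progenitor cells changed in both directions. Of 19 tested 6 rose and 3 fell, with a median of 0.00. Those that rose were Mycn and Lmo2, described above, Gata2 (0.68 ± 0.23), Nfia (0.50 ± 0.17), Hoxb5 (0.47 ± 0.13) and Lyl1 (0.34 ± 0.11). The Gata2 call was lost in 10 of 24 alternatives, that of Nfia in 7 of 23, that of Lyl1 in 2 and that of Hoxb5 in 1 of 24, and Lyl1 and Hoxb5 were named after their values were seen. The 3 that fell were Tal1, Hlf and Msi2, an RNA-binding protein of stem cells (-0.81 ± 0.26), whose call was lost in 6 of 23 alternatives. Other probe sets of Gata2 (0.18) and Msi2 (-0.21) were not called. Tal1, a regulator of stem and erythroid cells, was at the floor on every L-GMP array, against 142, 214, 222 and 142 in GMP and a median of 601 in HSC (at least 4.55-fold lower, adjusted p = 8.14e-11). Bcl11a, a repressor of fetal globin and a lymphoid factor outside that list, had 38.7, 38.7 and 41.2 in L-GMP, against 327, 402, 358 and 386 in GMP, at least 9.39-fold lower (adjusted p = 4.47e-17). Hlf, a leucine zipper factor of stem cells, fell at least 3.48-fold. In the list of stem cell surface and self-renewal genes 2 of 25 tested rose and 10 fell. Cd27, a tumour necrosis factor receptor, fell at least 12.6-fold and Abcg2, an efflux pump named after its value was seen, at least 3.42-fold, and the list's summed level was 3650 to 4202 on the L-GMP arrays and 7176 to 8817 on the GMP arrays. Txnip, which binds thioredoxin, rose 1.86-fold. Hoxa9, Hoxa10, Meis1 and Lmo2 were thus higher in L-GMP while Tal1, Bcl11a, Hlf and Cd27 were lower.

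Of 33 tested cytokine receptors 6 rose and 6 fell (36.4%), a share near that of all genes. Csf2ra, the alpha chain of the GM-CSF receptor, had 2278, 2845 and 3104 in L-GMP, against 1388, 1590.1, 1566 and 1676 in GMP, 1.79-fold higher (adjusted p = 2.23e-05), and Csf2rb2, a beta chain used by interleukin 3, rose 2.73-fold. Il10rb rose 2.33-fold. Tnfrsf1b, a receptor of tumour necrosis factor, fell by 0.95, and the Pim1 kinase, a target of cytokine signals, by 1.98 by the probe set that represents it. Pim1 is 1 of 21 genes whose kept probe sets were called in opposite directions, its other probe set being called higher (0.34).

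By the probe sets that represent them, 27 genes lay at the floor on every L-GMP array and above it on all 16 normal arrays. For 6 of them, including Ptger3, Fkbp9, F2r, Smo and Ccnd1, another probe set lay above the floor on at least 1 L-GMP array. Ppic, a secreted cyclophilin, was among the 27, against 857, 765, 746 and 638 in GMP (at least 19.3-fold lower, adjusted p = 8.24e-17). So were Fkbp9, a peptidyl-prolyl isomerase of the endoplasmic reticulum (at least 11.4-fold lower), Gja1, the gap junction protein connexin 43 (at least 9.26-fold lower), Ctla2a, a protease inhibitor (at least 10.01-fold lower), and F2r, the thrombin receptor (at least 5.73-fold lower). The other probe set of Fkbp9 averaged 160.3 in L-GMP and 177 in GMP and was not called (-0.14, adjusted p = 0.419). F2r had 184, 205, 206 and 311 in GMP and a median of 4944 in MEP. Ptch1, the receptor of the hedgehog pathway, fell at least 4.89-fold and Smo, its signal transducer, at least 5.59-fold, and both were named after their values were seen. In the TGF beta and BMP pathway 4 of 21 tested rose and 3 fell (33.3%), a share near that of all genes. Tgif2, a homeobox repressor of SMAD signals, fell at least 14.5-fold, Ltbp3, which binds latent TGF beta, at least 5.92-fold, and Smad1, a transducer of BMP signals, 3.28-fold, whereas Id1, a target of BMP signals in many cells, rose 2.39-fold. Other probe sets of Ltbp3 (-0.19) and Smad1 (-0.41) were not called. Further large decreases were those of Tmem176b (-3.99 ± 0.14), Dmkn (at least 13.6-fold), Rab38 (at least 12.4-fold), Serpinf1 (-3.50 ± 0.13), AW112010 (-3.48 ± 0.15), Slco3a1 (at least 9.43-fold) and Afp (at least 8.06-fold). The probe sets of Serpinf1 disagreed, the other being not called and above 0 (0.19, adjusted p = 0.392).

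Many genes that build ribosomes fell. Of 62 listed ribosome biogenesis genes 57 were tested, 37 fell and 0 rose (64.9%, against 33.5% of all genes called), with a median of -0.54. In 35 of the 57 all L-GMP arrays lay below all GMP arrays, which held for 14.1% of all genes. Utp20, of the small subunit processome, had 147, 185 and 245 in L-GMP, against 344, 347, 383 and 351 in GMP, 1.94-fold lower (adjusted p = 4.16e-05). Noc4l, of a nucleolar complex, had 230.5, 253 and 318 in L-GMP, against 443, 541, 512 and 496 in GMP, 1.91-fold lower (adjusted p = 2.43e-05). Other probe sets of Noc4l were called lower by less (-0.38 and -0.29). Utp4, another processome subunit, fell 2.36-fold and Ftsj3, a methyltransferase of ribosomal RNA precursors, 2.19-fold. Smaller falls were those of the nucleolar proteins Npm1 (-0.41), Ncl (-0.50) and Fbl (-0.61), named after their values were seen. The Ncl call was lost without replicate 3 of GMP and with the 10 arrays fitted alone, and another of its probe sets was not called (-0.58). Among the proteins of the finished cytoplasmic ribosome 1 of 36 tested fell and 0 rose, with a median of -0.05. The 1 was Rpl14, with 158, 183 and 223 in L-GMP, against 392, 453, 428 and 387 in GMP.

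CACGTG stood in the promoter of 13 of the 49 tested ribosome biogenesis genes with a promoter in the table (26.5%) and of 9 of the 31 called lower (29.0%), against 10.3% of all tested genes. Lysosome genes, which were mostly higher, and ribosome biogenesis genes, which were mostly lower, thus held the E-box at similar shares. The promoters of Utp4 (chr8:106893390-106893689, plus strand) and Utp20 (chr10:88826765-88827064, minus strand) are shown for comparison with those of Ctsd and Lamp1, with CACGTG in capitals.
Utp4: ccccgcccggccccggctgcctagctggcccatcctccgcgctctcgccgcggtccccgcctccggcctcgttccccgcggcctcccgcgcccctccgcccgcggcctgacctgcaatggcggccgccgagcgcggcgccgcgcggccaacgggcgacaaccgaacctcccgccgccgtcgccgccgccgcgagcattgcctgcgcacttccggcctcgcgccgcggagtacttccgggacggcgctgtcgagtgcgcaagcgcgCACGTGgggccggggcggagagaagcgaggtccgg
Utp20: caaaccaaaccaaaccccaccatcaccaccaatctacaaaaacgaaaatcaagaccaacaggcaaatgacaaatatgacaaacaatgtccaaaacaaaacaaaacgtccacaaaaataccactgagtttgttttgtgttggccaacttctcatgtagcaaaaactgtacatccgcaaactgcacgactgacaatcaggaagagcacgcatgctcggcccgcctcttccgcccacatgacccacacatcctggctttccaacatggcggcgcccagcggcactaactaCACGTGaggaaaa
Each holds 1 copy, which begins at base 16 of the transcript in Utp4 and at base 38 in Utp20, counted from 1 at the start site.

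MYC genes lie upstream of ribosome production in many cells. Of 12 tested genes of the MYC network 3 rose and 1 fell (33.3%), a share near that of all genes. Myc had 445, 465 and 527 in L-GMP, against 795, 979, 967 and 1003 in GMP, 1.95-fold lower (adjusted p = 2.12e-07), and no L-GMP array reached the lowest GMP array. Mxi1 and Mxd4, which compete with MYC for its partner MAX, rose 2.50-fold and 1.72-fold. Another probe set of Mxd4 was not called (0.33). Mxi1 had 417, 562 and 774 in L-GMP, against 164, 214, 252 and 296 in GMP. The large rise of Mycn given above rests on 1 of its probe sets.

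Many mitochondrial genes fell by small amounts. Of 69 tested mitochondrial ribosomal proteins 29 fell and 1 rose (43.5%, against 33.5% of all genes called), with a median of -0.26. Of 70 tested subunits of oxidative phosphorylation 32 fell and 0 rose (45.7%), with a median of -0.22. Mrpl38 had 101, 114 and 137 in L-GMP, against 200.1, 248, 284 and 311 in GMP, 2.23-fold lower (adjusted p = 2.69e-05), and Mrpl47 fell 1.85-fold. Another probe set of Mrpl38 was not called (-0.28). Ndufv1, a subunit of complex I, had 876, 915 and 1052 in L-GMP, against 1470.4, 1479.6, 1566 and 1641 in GMP, 1.65-fold lower (adjusted p = 1.49e-06), and Ndufa12, also of complex I, 1.53-fold. The 1 that rose, Mrpl57 (0.27 ± 0.09), lost its call in 9 of 24 alternatives.

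Genes of central carbon metabolism were mostly lower where they were called. Slc16a1, the lactate carrier MCT1, had 70.1, 80.9 and 134 in L-GMP, against 567, 507, 429 and 612 in GMP, 6.08-fold lower (adjusted p = 5.43e-09). Of 17 tested glycolysis genes 7 fell and 2 rose (52.9%, against 33.5% of all genes called). In the citrate cycle Idh2 fell 1.52-fold and Idh3a 1.51-fold, while Pgd and Taldo1, enzymes of the pentose phosphate pathway, rose 1.48-fold and 1.64-fold. Taldo1 had 2686, 3018 and 3638 in L-GMP, against 1765, 1741, 1888 and 2232 in GMP, with no overlap. Of 24 tested genes of the pentose phosphate pathway and citrate cycle 10 fell and 2 rose (50%).

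In serine synthesis the change was large. Phgdh, which commits glycolytic carbon to serine, had 156, 255 and 494 in L-GMP, against 2915, 2877, 3633 and 3662 in GMP, 11.8-fold lower (adjusted p = 4.85e-11). All 4 of its kept probe sets were called lower, and its medians in HSC, CMP and MEP were 2864, 3042 and 2271. Of 11 tested serine and one-carbon genes 7 fell and 0 rose, among them Mthfd1 (1.74-fold lower), Gcsh (1.66-fold lower) and Psph (1.499-fold lower), the last step of serine synthesis. Of 18 tested aminoacyl-tRNA synthetases 10 fell and 0 rose, with a median of -0.38, and Nars had 736, 847 and 994 in L-GMP, against 1285, 1163, 1285 and 1200.3 in GMP (1.47-fold lower). Slc7a5 and Slc3a2, the chains of a transporter of large neutral amino acids, fell at least 3.08-fold and 1.51-fold.

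Purine and pyrimidine synthesis was lower at its first committed steps. Of 25 tested nucleotide genes 9 fell and 3 rose (48%, against 33.5% of all genes called). Ppat, the first enzyme of purine synthesis, had 108, 124 and 130.2 in L-GMP, against 235, 267, 242 and 231 in GMP, 2.02-fold lower (adjusted p = 2.42e-06). Cad, which starts pyrimidine synthesis, had 275, 317 and 389 in L-GMP, against 543, 653, 612 and 557 in GMP, 1.81-fold lower (adjusted p = 1.26e-06). Gart and Adsl, later purine enzymes, fell 1.70-fold and 1.63-fold. The 2 other probe sets of Gart were not called and had opposite signs (0.32 and -0.29). None of these 4, by the probe sets that represent them, overlapped between the groups.

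Fatty acid genes were lower where they were called. Of 20 tested fatty acid genes 10 fell and 0 rose (50%, against 33.5% of all genes called), with a median of -0.35. Elovl6, which elongates palmitate, had 51.6, 60.0 and 85.1 in L-GMP, against 401, 404, 326 and 239.6 in GMP, 5.39-fold lower (adjusted p = 2.27e-09), and Elovl5, which elongates polyunsaturated chains, 1.85-fold. In cholesterol synthesis 3 of 19 tested fell and 1 rose (21.1%), a share below that of all genes. Sqle, which makes squalene epoxide, fell 2.69-fold and Hmgcs1 1.84-fold.

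Many chaperones of the cytosol and mitochondria fell. Of 32 tested cytosolic and mitochondrial chaperones 17 fell and 0 rose, with a median of -0.36. Hspa1a and Hspa1b, the stress-induced HSP70 genes, which share most of their sequence, fell at least 20.8-fold and 17.1-fold. Hspa1b had 77.4, 377 and 781 in L-GMP, against 2960.0, 7170.0, 6678 and 5336 in GMP, and replicate 1 of GMP was the lowest of its group in both genes. Hspa4, a nucleotide exchange factor of HSP70, had 255, 1019 and 1317 in L-GMP, against 2040.2, 2352, 2048 and 2177 in GMP (2.51-fold lower, adjusted p = 0.00151), while its other probe set was not called (-0.19, adjusted p = 0.166). Hspa5 (BiP), Manf and Pdia6, of the endoplasmic reticulum, fell 1.87-fold, 1.94-fold and 1.84-fold, Pdia6 not with the mean of its probe sets, of which the other was not called (0.42). In the list of ATF4 and unfolded protein response genes that holds these 3, 3 of 24 tested rose and 6 fell (37.5%), a share near that of all genes. Without replicate 1 of GMP 1 rose and 6 fell. Of 36 tested proteasome subunits 7 fell and 0 rose (19.4%), against 33.5% of all genes called and 18.3% called lower.

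**Figure D4:**
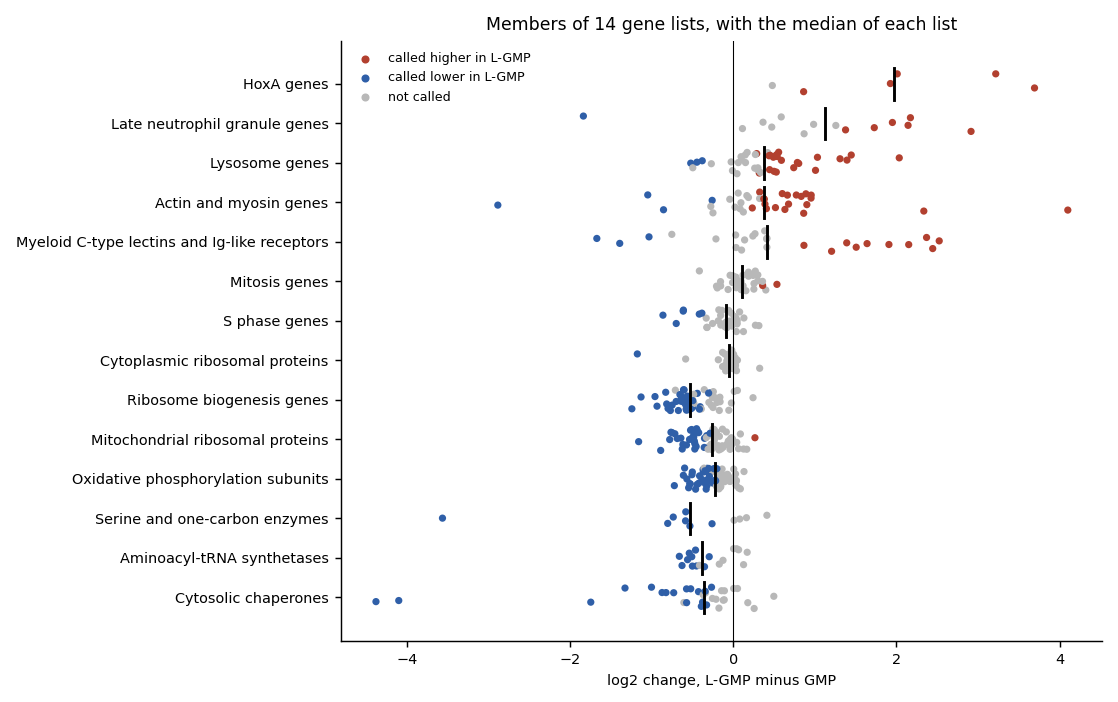
Each point is the log2 change of 1 tested gene in L-GMP against GMP (horizontal axis) for 14 lists, red where called higher, blue where called lower and grey where not called, with a black bar at the list's median. Ribosome biogenesis (median -0.54) and serine and one-carbon genes (-0.53) lie to the left, HoxA genes (1.97) and late neutrophil genes (1.12) to the right, and cytoplasmic ribosomal proteins (-0.05) close to 0.

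Genes of entry into the cell cycle changed in both directions. All 4 tested D-type cyclins and their kinases were called. Ccnd2, which drives early G1, had 44.1, 92.6 and 134 in L-GMP, against 1232, 1247, 1722 and 1365 in GMP, 15.98-fold lower (adjusted p = 1.24e-12), and its 6 kept probe sets were all called lower. By the probe set that represents it, Ccnd1 was at the floor on every L-GMP array, against 140.0, 186, 155 and 176 in GMP (at least 4.22-fold lower, adjusted p = 1.82e-08). Another averaged 73.8 in L-GMP and 119 in GMP, with a smaller change (-0.68), and all 3 were called lower. Ccnd3 had 286, 343 and 520.2 in L-GMP, against 152, 144, 159 and 203 in GMP, 2.27-fold higher (adjusted p = 6.77e-06). Ccnd2 and Ccnd1 were thus lower and Ccnd3 higher, each with no overlap. Their kinase Cdk4 fell 1.55-fold.

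Several inhibitors of the cell cycle kinases rose. Of 9 tested inhibitors and retinoblastoma family genes 5 rose and 0 fell, with a median of 0.48. Cdkn1c (p57) had 99.5, 173 and 560.4 in L-GMP, against 38.7, 40.8, 38.7 and 38.7 in GMP, at least 5.47-fold higher (adjusted p = 1.04e-05), and Cdkn2c (p18) 384, 921 and 1214, against 291, 262, 267 and 332 in GMP, 2.90-fold higher. Cdkn2d (p19) rose 2.10-fold and Cdkn1b (p27) 1.75-fold. By contrast 6 of 37 tested S phase genes fell and 0 rose (16.2%), and 2 of 34 mitosis genes rose and 0 fell (5.88%). Both shares were below the 33.5% of all genes called. The S phase genes that fell included DNA polymerase subunits, Pola2 1.82-fold, Pold2 1.62-fold and Pola1 1.53-fold lower. Neither mitosis call, Ccnb2 (0.54 ± 0.20) and Bub3 (0.36 ± 0.10), held in all alternatives, and another probe set of Bub3 was not called (-0.19).

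Chromatin regulators were divided. Of 25 tested Polycomb and DNA methylation genes 5 rose and 8 fell (52%, against 33.5% of all genes called). Dnmt3b, a de novo DNA methyltransferase, had 217, 254 and 354 in L-GMP, against 725, 1009, 824 and 681 in GMP, 3.02-fold lower (adjusted p = 1.2e-08). The chromobox genes Cbx6 and Cbx2 fell 3.14-fold and 2.25-fold. Mbd2, which reads methylated DNA, rose 1.77-fold, Jarid2, a cofactor of the histone methyltransferase PRC2, 1.69-fold and Phf19, another, 1.52-fold. Jarid2 had 1265, 1358 and 1589 in L-GMP, against 769, 946, 844 and 748 in GMP, with no overlap. Another probe set of Phf19 was not called (0.21). Ezh1, counted among the 5 that rose by the probe set that represents it (0.53 ± 0.17), had another called lower (-0.43), and its call was lost in 4 of 24 alternatives.

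Death genes were higher where they were called. Of 23 tested genes of the BCL2 family and cell death 8 rose and 0 fell (34.8%), and of 13 p53 targets 3 rose and 0 fell (23.1%). Of all genes 33.5% were called and 15.2% were called higher. Pmaip1 (NOXA), a trigger of apoptosis on both lists, had 203, 224 and 595 in L-GMP, against 38.7, 112, 38.7 and 84.1 in GMP, at least 4.24-fold higher (adjusted p = 1.59e-05). Trp53inp1, a stress-induced p53 target, had 171, 247 and 335 in L-GMP, against 104, 126, 115 and 118 in GMP, 2.11-fold higher (adjusted p = 0.000193). Bcl2l11 (BIM) and Bad, other triggers, rose 1.44-fold and 1.46-fold, and so did Birc3, an inhibitor of apoptosis, 1.59-fold.

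Several interferon-induced genes fell. The 3 tested Ifitm genes, membrane proteins that block virus entry and are high in stem cells, all fell. Ifitm3 had 107, 123 and 204 in L-GMP, against 2108, 1896, 2369 and 1554 in GMP, 14.7-fold lower (adjusted p = 2.33e-13), and Ifitm1 44.3, 54.4 and 97.7, against 956, 912, 1171 and 652 in GMP, 15.1-fold lower. Ifitm2 fell 1.75-fold. Of 38 other tested interferon-stimulated genes 14 fell and 1 rose, with a median of -0.16. Rtp4 fell at least 3.77-fold, Gbp2, an induced GTPase, at least 2.45-fold and Rsad2 (viperin), which blocks virus replication, at least 2.26-fold. Gbp2 and Rsad2 lost their calls with a floor at the 50th percentile, Rsad2 also with the mean of its probe sets, of which 2 were not called (0.34 and 0.00). Ifi30, a lysosomal thiol reductase that the list counts as induced, rose 2.78-fold, with 1101, 1202 and 1555 in L-GMP, against 434, 383, 405 and 572 in GMP.

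The interferon response element, searched on both strands as GAAA, 2 bases of any kind and GAAA, stood in 15 of 28 tested interferon-stimulated genes with a promoter in the table (53.6%) and in 6 of the 10 called lower (60.0%), against 3.21% of tested genes. The promoters of Gbp2 (chr3:142620413-142620712, plus strand) and Rsad2 (chr12:26456403-26456702, minus strand) show it, with the match in capitals. On the gene's strand both read as the reverse complement, TTTC, 2 bases and TTTC.
Gbp2: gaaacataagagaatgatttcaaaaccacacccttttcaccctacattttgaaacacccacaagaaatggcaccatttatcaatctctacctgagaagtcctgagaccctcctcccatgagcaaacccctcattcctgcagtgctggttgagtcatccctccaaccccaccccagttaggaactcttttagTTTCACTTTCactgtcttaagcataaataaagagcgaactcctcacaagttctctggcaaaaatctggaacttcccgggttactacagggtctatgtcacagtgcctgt
Rsad2: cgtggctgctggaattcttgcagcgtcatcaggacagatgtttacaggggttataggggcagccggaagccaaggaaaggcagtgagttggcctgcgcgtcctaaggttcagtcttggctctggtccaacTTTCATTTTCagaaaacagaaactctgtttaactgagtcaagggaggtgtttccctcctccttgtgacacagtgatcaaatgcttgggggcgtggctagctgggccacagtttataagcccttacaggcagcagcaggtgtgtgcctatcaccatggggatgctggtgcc
The match begins 59 bases before the start in Gbp2 and 120 in Rsad2.

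In antigen presentation by MHC class II 3 of 10 tested rose and 2 fell (50%, against 33.5% of all genes called). H2-Aa, a classical chain, had 38.7, 38.7 and 83.2 in L-GMP, against 169, 206, 219.6 and 267 in GMP, at least 4.84-fold lower (adjusted p = 7.75e-05), and H2-Oa, a chain that regulates peptide loading, rose 1.99-fold. Of 13 tested class I genes 3 rose and 5 fell (61.5%), and without replicate 1 of GMP 1 rose and 5 fell.

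The calls of immediate early genes depended on 1 array. Of 28 tested 1 rose and 3 fell (14.3%), with a median of -0.45. Egr1 had 94.6, 183 and 1033 in L-GMP, against 58.6, 2368, 1322 and 744 in GMP, and Jun 38.7, 310.4 and 536, against 77.7, 1608, 1277 and 1271 in GMP, neither being called (-1.57 ± 1.03 and -1.48 ± 0.89). On both genes replicate 1 of GMP lay within or below the range of L-GMP, and below the other 3 GMP arrays. For Egr1 replicate 4 of GMP (744) also lay within the range of L-GMP. Without that array 0 rose and 11 fell, and without replicate 1 of GMP, CMP and HSC together 0 rose and 14 fell. Klf4, a transcription factor of monocytes and stem cells, had 43.8, 60.0 and 90.4 in L-GMP, against 299.5, 655, 419 and 518 in GMP (7.37-fold lower, adjusted p = 0.000337), and kept its call without it. Rgs1, which damps chemokine signals, fell at least 3.999-fold, and its log2 change without replicate 1 of GMP, itself at the floor, was -2.70. That array was left out because of these genes, after their values were seen.

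Genes of other lineages were called in both directions. Of 28 tested erythroid and haem genes 5 rose and 5 fell (35.7%), a share near the 33.5% of all genes. Tfr2, an iron sensor of erythroid cells, fell at least 4.81-fold, Cpox and Alad, enzymes of haem synthesis, 2.89-fold and 2.004-fold, and Blvrb, which reduces biliverdin, rose at least 3.21-fold. The bound for Tfr2 rests on 1 probe set, and the other averaged 107 in L-GMP and 143 in GMP (-0.42). Another of Cpox was not called (-0.05). The summed erythroid level was 10160.0 to 12261 on the L-GMP arrays and 10094 to 12002 on the GMP arrays, with Klf1 and Rhag at the floor on every array of both groups. Of 14 tested megakaryocyte genes 4 rose and 3 fell (50%). Of 9 B cell genes 2 rose and 0 fell (22.2%). They were Cd79b (0.54 ± 0.15) and Rag1 (0.71 ± 0.22), the second not without replicate 3 of GMP. Of 13 T and NK cell genes 0 rose and 3 fell (23.1%), and of 13 stroma and endothelial genes 2 rose and 0 fell (15.4%). The B cell, T and NK cell and stroma shares were below that of all genes. The summed megakaryocyte level was 4054 to 4963 on the L-GMP arrays and 3217 to 3716 on the GMP arrays, with no overlap and with Vwf at the floor throughout both groups. The summed T and NK cell level was 3235 to 4041 on the L-GMP arrays and 4215 to 5028 on the GMP arrays, and the summed B cell level was 3384 to 4719 on the L-GMP arrays and 2906 to 3621 on the GMP arrays. The part of other cells in these sums was not tested. Pf4, platelet factor 4, had 51.0, 64.1 and 83.4 in L-GMP, against 135, 91.7, 88.0 and 807 in GMP, and its call was lost without replicate 4 of GMP (log2 change -0.68, against -1.42 with it). Without replicate 1 of GMP 2 T and NK cell genes rose and 3 fell.

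The transduced experiment shares no sample with the sorted arrays, so its changes are set beside those of L-GMP as a description. There 2 of 7235 genes were called (0.0276%), too few for a comparison of calls, and each experiment may use another probe set for a gene. Of the 254 genes at least 2-fold higher in L-GMP 171 were measured, 40 above and 131 below 0 in MLL-AF9 against GFP, with a median log2 change of -0.35. Of the 251 at least 2-fold lower 213 were measured, 136 above and 77 below 0, with a median of 0.12, while 53.4% of all genes lay above 0 with a median of 0.02. Most genes with large changes in L-GMP thus did not carry the same sign in transduced GMP. Among HOX genes and cofactors the change was 2.82 for Meis1, 1.56 for Hoxa9 and 1.40 for Hoxa7, whereas Hoxa3 had -0.09. For phagocyte genes that rose in L-GMP the change there was -2.31 for Ccr1, -1.22 for Adgre1, -1.26 for Gsn and -0.59 for Cyba. For genes of growth that fell in L-GMP it was 0.74 for Myc, 0.61 for Utp20, 0.45 for Cad, 0.28 for Ccnd2 and 0.07 for Phgdh. None of these single changes passed the test in the transduced experiment.

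**Figure D5:**
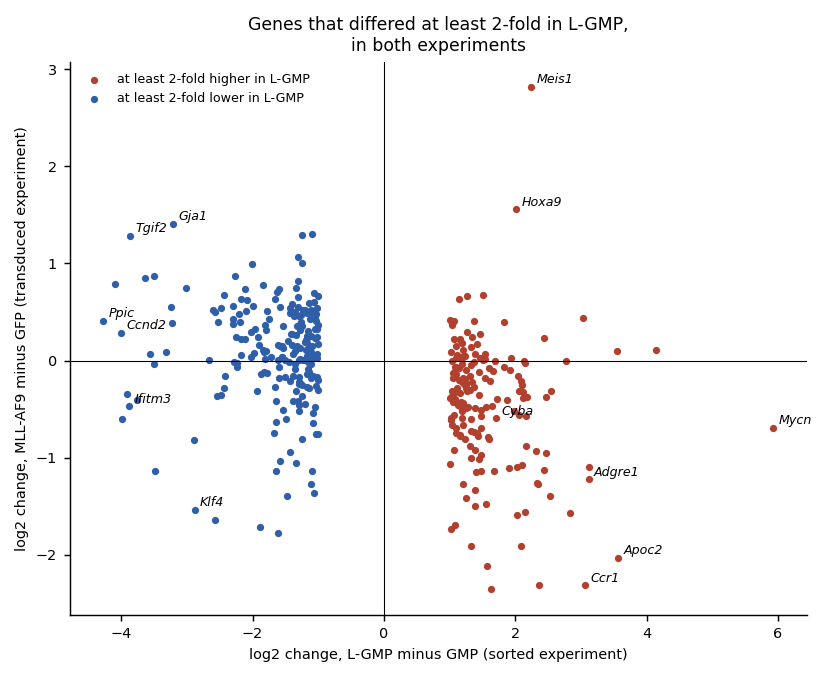
Each point is a gene that differed at least 2-fold in L-GMP against GMP, with that log2 change on the horizontal axis and its log2 change in MLL-AF9 against GFP on the vertical axis. Of the 171 higher genes (red) 131 lie below 0 on the vertical axis, with Meis1 and Hoxa9 at the top, and of the 213 lower genes (blue) 136 lie above 0.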

How the data were processed

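The values are linear probe set intensities of 28 mouse Affymetrix arrays, 1 colour and 1 sample each, which the authors made with MAS5 and deposited as 1 table, per the submitters' processing notes; version and scaling target are not given in the sources used here. About 10000 cells were lysed per sample and the RNA was amplified, per the labels' protocols. Array number, not read depth, limits the precision, and an intensity compares arrays within a probe set only.

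Of 22690 probe sets, 64 controls, 691 with several genes and 1555 with none were left out of the gene tests, and 20380 had 1 gene in GEO's platform annotation. The 22 sorted arrays were scaled to a common trimmed mean (2% cut at each end), values under the 25th percentile were set to it, and log2 was taken. Probe sets above the median on at least 3 arrays were kept, so a gene silent in 1 group could enter through another; of a gene's kept probe sets the one with the highest mean was used. One linear model of all 22 arrays (limma 3.58.1, R 4.3.3) gave L-GMP minus GMP, with Benjamini-Hochberg adjusted p under 0.05 over 8422 genes as the threshold. The transduced arrays were handled alike in a fit of their own. The code was tested on simulated data.

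Members and gene lists were chosen with earlier results of these data known. Named genes were the 20 with the largest changes each way, up to 4 called members of each list each way, all members of the lists of sort markers, HoxA genes, Hox cofactors and D-type cyclins, and the 5 of smallest adjusted p each way; measured members that were not called may be named too. Alternatives changed the scaling, floor, filter, choice of probe set, arrays fitted, prior and covariate, and left out each array in turn. Same-numbered L-GMP and GMP arrays deviated with r of -0.39, 0.05, -0.49 and 0.14, so no pairing was used. So few values cannot exclude processing shared by replicate number, which was not tested.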

Additional observations from a re-analysis of the deposited data

Results flagged for a closer look

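Arrays that lay far from the rest of their group were looked for in 432 checks of 245 named genes, and 31 were found. Chance flags about 1 in 20 groups, and groups with more than 1 array at the floor were not checked. All values below are log2 levels.

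Replicate 1 of GMP was low in Jun (6.281, the others 10.31 to 10.65), Rgs1 (5.273, the floor), Myc (9.635, the others 9.918 to 9.97) and Cpox (8.152). Replicate 2 of GMP was high in Aff1 (10.16). Replicate 3 of GMP was high in Il10rb (8.522) and low in Mrpl47 (9.873). Replicate 4 of GMP was high in Ncf4 (10.52) and low in AW112010 (8.607), Ndufa12 (11.33) and Rtp4 (6.505).

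Among L-GMP, replicate 6 was high in Pmaip1 (9.216, the others 7.662 to 7.923), Birc3 (9.143), Egr1 (10.01, the others 6.564 to 7.709), Clec4d (8.135) and Hoxa3 (8.141), and low in Lyl1 (10.91) and Hspa4 (7.997, the others 9.846 to 10.36). Replicate 4 was high in Tyrobp (12.66), Alox5ap (12.23), Anxa7 (9.656) and Cd48 (9.177), and low in Lmo2 (11.04) and Pbx3 (8.577). Replicate 3 was low in Mpo (11.54, the others 12.15 to 12.45), Gcsh (9.317), Pdia6 (9.396) and Jun (5.273, the floor). Replicate 2 was high in Ptges2 (6.976) and low in Cdkn2d (7.636), and replicate 1 was low in Sox4 (7.635).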

How the results depend on the processing

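The count of 2825 called genes was 2625 to 2913 in the alternatives that kept all arrays and 1 value per gene, and 4007 when 12217 probe sets were tested each on its own. Leaving out 1 array gave 2319 (without replicate 3 of GMP) to 2745 called genes, 1079 to 1234 higher, 1240.0 to 1515 lower and 472 to 537 at least 2-fold. The count of at least 2-fold genes, 505, was 319 with a floor at the 50th percentile, which shortens every change that reaches the floor, and 343 with no floor and an offset of 50. The replicate number as a block gave 2660.0 called genes (1203 higher, 1457 lower), and since no pairing by number was established it is not used further. Without replicate 1 of GMP, CMP and HSC together, an alternative chosen after seeing the data, 2618 genes were called. Of 231 called genes named here 197 kept their call in all alternatives run and 34 lost it in at least 1, the cause of which was not tested. Those not described with their result are Blvrb (0.27) and Rgs1 (-0.98) with a floor at the 50th percentile and Hdc (-0.69) with a floor at the 10th. Of 14 named genes that were tested for this and not called, 8 were called in at least 1 alternative. No named gene changed sign while called. Changes of genes at the floor are limited by background signal, and 35 called genes stayed at it throughout L-GMP and 31 throughout GMP.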

Other observations

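Of 16 tested S100 and annexin genes, which bind calcium, 3 rose and 3 fell (37.5%), a share near that of all genes. The genes that fell were S100a6 (-1.61), S100a4 (-1.11) and S100a10 (-1.01), and those that rose were Anxa5 (0.90), which binds exposed phosphatidylserine, Anxa7 (0.34) and S100a13 (0.54). The Anxa7 call was lost with the mean of its probe sets, of which 2 were not called (-0.14 and 0.29), and the S100a6 call with a floor at the 50th percentile. In the feedback of the MAP kinase pathway 3 of 17 tested fell and 1 rose (23.5%), a share below that of all genes. Those that fell included the Sprouty-related inhibitors Spred2 (-1.14) and Spred1 (-0.77). Without replicate 1 of GMP 5 fell and 1 rose. Of 22 tested WNT pathway genes 2 rose and 3 fell, and of 20 Notch pathway genes 2 rose and 1 fell, beside 33.5% of all genes called.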
